A study of Arabidopsis thaliana with 24 samples.

Results

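Arabidopsis seedlings that lack the long noncoding RNA HID1 (hid1 mutants) were compared with wild-type seedlings of the Col-0 ecotype (WT) by sequencing of poly(A) RNA. The comparison takes 6 of the 24 libraries of the series, 3 of hid1 and 3 of WT, chosen by their genotype labels. All seedlings were 9 days old, grown under continuous white light, and total seedlings were used. The 6 libraries held 19309154 to 23912716 counted reads. The bte1 hid1 double mutant and the bte1 mutant, with 3 libraries each, are used to look at the same loss in another background. The other genotypes of the series (hid1 phil1, bte1 btl1, btl1 and the e2fa e2fb e2fc triple mutant) serve as levels and for the estimate of spread. The labels name no hid1 allele and no other hid1 line, so the loss of HID1 and any other difference carried by that line cannot be told apart. They state that the replicates of a genotype are biological, without saying from how many plants or sowings each came.

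HID1 was described as a noncoding RNA that promotes seedling photomorphogenesis under red light. It is known to associate with chromatin of PIF3, the gene of a basic helix-loop-helix factor that keeps seedlings in their dark-grown form, and to keep PIF3 expression low. The title of the series concerns the DREAM complex, a cell-cycle repressor made of E2F, RBR1, MYB3R and TSO1-like proteins, and WDR5a, a core subunit of the COMPASS complexes that methylate histone H3 at lysine 4. Whole seedlings mix root, shoot and meristem, so fewer cells of a type and less RNA per cell cannot be told apart.

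No read of HID1 was counted in any hid1 library, against 6.84, 9.67 and 9.32 CPM (read counts scaled to the library's total) in WT libraries 1 to 3. With a floor of 3 reads over the group, which like the intervals given later covers counting error only, HID1 was at least 187-fold lower in hid1. The reference does not place HID1 itself, but 3 annotated entries that follow each other on chromosome 2 were also without a read in hid1. They were AT2G35744 and AT2G35747, which are small nucleolar RNA (snoRNA) genes, and AT2G35750, an uncharacterized protein gene that overlaps AT2G35747 on the same strand. In WT they had 4.37, 5.13 and 6.48, 5.16, 5.89 and 6.39 and 8.40, 10.97 and 10.8 CPM, and were at least 116-fold, 126-fold and 218-fold lower in hid1. AT2G35750 and HID1 ranked the WT libraries in the same order. Whether any of these entries counts the same reads as HID1 was not tested.

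On the far side of these 3 entries, another snoRNA gene, AT2G35742, had 2.34, 2.18 and 2.403 CPM in hid1, against 0.252, 0.720 and 0.350 CPM in WT. Its libraries did not overlap between the genotypes, but its log2 change of 2.39 ± 0.99 (± standard error, SE) did not pass the test (adjusted p = 0.242). AT2G35742 and AT2G35744 are similar copies, with 72 identical bases in 80 aligned columns (90%). In hid1, where AT2G35742 had reads, none was counted for AT2G35744. How reads were divided between the copies in WT was not tested. AT2G35747 has another sequence, with 56.6% and 54.9% of aligned columns identical to those of AT2G35742 and AT2G35744. The 3 gene sequences, from RefSeq TAIR10.1, are shown because they mark what was lost, what was kept and how alike the copies are. AT2G35742 lies at chr2:15027589-15027668 on the minus strand, AT2G35744 at chr2:15029712-15029790 on the minus strand and AT2G35747 at chr2:15029832-15029911 on the minus strand.
AT2G35742: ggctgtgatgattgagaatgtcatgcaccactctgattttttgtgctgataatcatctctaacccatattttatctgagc
AT2G35744: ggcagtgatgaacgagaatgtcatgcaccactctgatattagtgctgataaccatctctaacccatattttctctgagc
AT2G35747: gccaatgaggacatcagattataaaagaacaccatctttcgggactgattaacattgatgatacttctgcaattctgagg

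AT2G35760 and AT2G35743, which flank the 3 entries without reads, were higher in hid1. AT2G35760, a membrane protein gene of the UPF0497 family that starts after AT2G35750 on the other strand, had 31.0, 32.5 and 37.8 CPM in hid1, against 8.86, 9.49 and 9.32 CPM in WT. The groups were far apart, and its log2 change of 1.87 ± 0.10 had the smallest adjusted p of all genes tested (2.39e-11). The transcribed pseudogene AT2G35743 had 4.03, 3.49 and 4.13 CPM in hid1, against 0.798, 0.944 and 0.875 CPM in WT, a log2 change of 2.15 ± 0.22 (adjusted p = 9.84e-07). HIL1, a HID1-like transcript that the reference does not place either, had 3.99, 3.54 and 4.13 CPM in hid1, against 0.714, 0.854 and 0.875 CPM in WT, a change of 2.25 ± 0.18 (adjusted p = 1.65e-08). HIL1 and AT2G35743 had nearly the same level in each of the 6 libraries, and whether they count the same reads was not tested. Past these, INT3, an inositol transporter gene, had a log2 value of 0.31, scpl28 0.54 and scpl26 0.073, and none of these 3 was called.

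**Figure D1:**
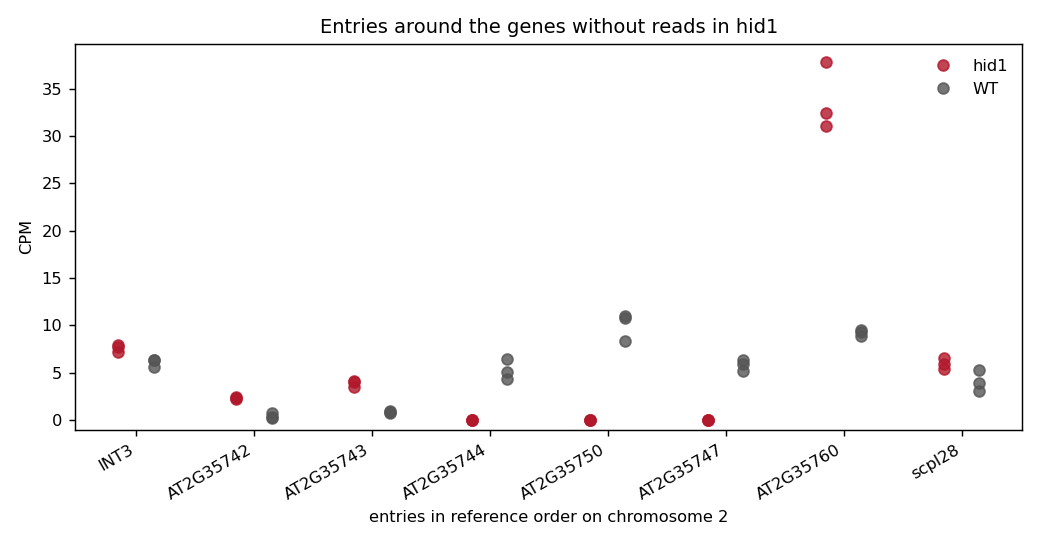
CPM (y axis) of 8 annotated entries in their order on chromosome 2 (x axis), with hid1 libraries in red left of WT libraries in grey and each point 1 library. AT2G35744, AT2G35750 and AT2G35747 lie at 0 in hid1, and AT2G35760 lies at 31.0 to 37.8 CPM in hid1, above 8.86 to 9.49 CPM in WT.

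PIF3, named here for its known link with HID1, had 24.9, 25.8 and 27.0 CPM in hid1, against 25.3, 30.7 and 24.8 CPM in WT, and the libraries overlapped. Its log2 value of -0.056 ± 0.11 was not called (adjusted p = 0.881). HY5, the bZIP factor that acts against PIFs in light-grown seedlings, was at -0.17 ± 0.10 and was not called (adjusted p = 0.443). Of 48 light signalling genes tested, 2 were called (4.17%), a share close to the 3.44% of all genes tested that passed an adjusted p of 0.05. Both were lower in hid1: PIL6, better known as PIF5, had 69.0, 87.1 and 77.2 CPM in hid1, against 119, 131 and 116 CPM in WT (-0.65 ± 0.13), and STO, the B-box protein BBX24, had 115, 133 and 117 CPM in hid1, against 162, 184 and 178 CPM in WT (-0.52 ± 0.11). The libraries of neither overlapped. STO overlaps an entry on the other strand, and the strand setting of the counting was not stated. The list as a whole had a median log2 value of -0.12, against 0.00085 over all genes. No gene was called among 47 of light harvesting and photosystems (median -0.061) or 31 of chlorophyll synthesis (median 0.018).

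Over the whole transcriptome, 754 of 21897 genes tested passed an adjusted p of 0.05, or 3.44%, and are termed called. Of these, 378 were higher in hid1 (1.73%) and 376 lower (1.72%). At a 2-fold or larger change there were 115 higher and 82 lower genes. Called genes had median log2 values of 0.61 for the higher and -0.61 for the lower ones. The 3 hid1 libraries lay wholly above or below the 3 WT libraries for 746 of the called genes (98.9%), against 25.2% of all genes tested. Libraries that do not overlap therefore add little to a call. Called genes were spread over the chromosomes at 3.16% to 3.97% of the genes tested on each. The number depended on single libraries: it was 412 without hid1 replicate 1, 349 without hid1 replicate 3, 370 without WT replicate 2 and 441 without WT replicate 3. Most called genes, 626 of 754, belonged to none of the 53 gene lists described here, and 387 had no symbol of their own in the reference.

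**Figure D2:**
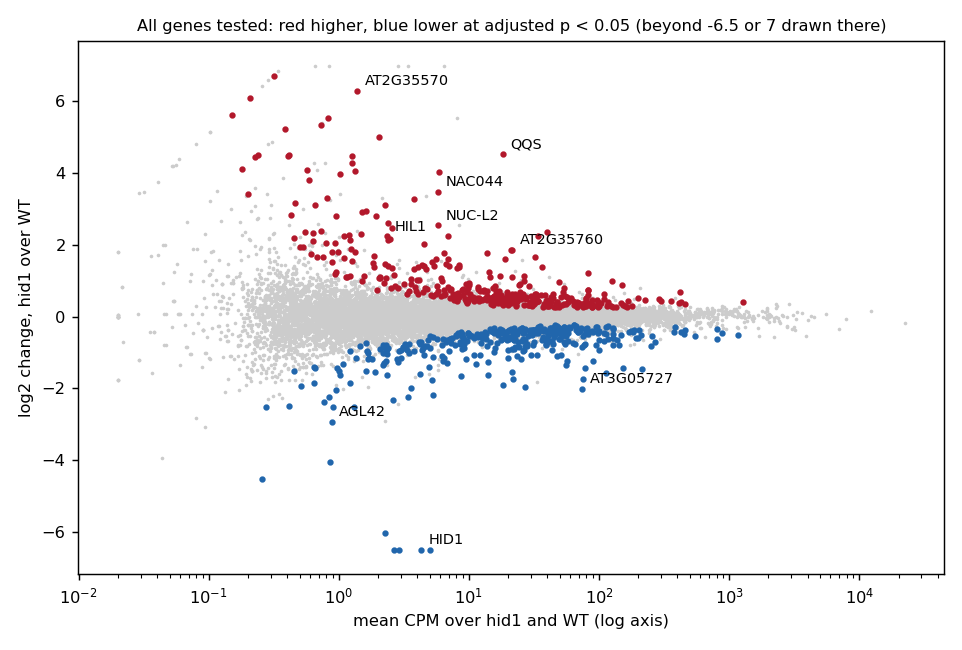
Log2 change of hid1 over WT (y axis) against the mean CPM over both genotypes (x axis, log scale), each point 1 gene. Red points are the 378 genes called higher, blue points the 376 called lower and grey points those not called; named genes include HID1 at the bottom and QQS near the top.

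Many of the largest called rises, among genes that reached 1 CPM in either genotype, were at loci with almost no read in WT. A ranking by log2 change favours such loci. Their low WT level therefore follows in part from the choice and is no separate result. AT2G35570, a transcribed pseudogene that overlaps another entry on the same strand, had 2.86, 3.14 and 2.25 CPM in hid1, against 0, 0.0899 and 0 CPM in WT. It had 181 reads over the hid1 libraries and 2 over the WT libraries, a ratio of 95.8-fold (95% counting interval 26.1 to 797). The overlapping entries AT2G13430 and AT2G13431.1 had 92 and 105 reads in hid1 and 2 each in WT, ratios of 48.7-fold (95% counting interval 13.1 to 408) and 55.6-fold (95% counting interval 15.001 to 465). Reads of that pair cannot be separated without strand. RE2, an entry named after a retrotransposon, had 3.42, 4.63 and 3.81 CPM in hid1, against 0.0840, 0.180 and 0.0875 CPM in WT (5.02 ± 0.49, adjusted p = 2.97e-07). SADHU3-2, a non-autonomous retroelement of the Sadhu family, had 10.6, 12.97 and 9.77 CPM in hid1, against 0.588, 0.899 and 0.525 CPM in WT (4.04 ± 0.50, adjusted p = 5.63e-05). The separation of these entries between the genotypes is no further result, because it was a condition of the choice.

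Further called rises came from loci of several kinds. AT5G53230 and AT5G55270, which encode DUF295 proteins, had log2 changes of 3.99 and 4.07. AT1G30160 and AT1G30170 are overlapping neighbours that also encode DUF295 proteins. AT1G30160 had 1.52, 1.66 and 2.45 CPM in hid1, against 0.756, 0.315 and 0.832 CPM in WT. AT1G30170 had 0.347, 0.480 and 0.418 CPM in hid1 and no read in WT, at least 9.53-fold higher in hid1. The entries AT5G28335.1, AT3G42820.1 and AT2G26630.1 carry a transcript number in the table, as do RE2 and SADHU3-2 under their locus numbers, and changed by 4.29, 3.82 and 3.27. AT4G05380, which encodes a P-loop nucleoside triphosphatase, and AT4G10695, which encodes a CDC68-like protein, changed by 4.08 and 3.30.

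Calls among entries with a transcript number and among pseudogenes were mostly higher in hid1. Of 192 entries with a transcript number, 16 were higher and 4 lower (10.4% called), and of 159 transcribed pseudogenes 11 were higher and 2 lower (8.18%). Protein-coding genes gave 341 higher and 359 lower of 20931 (3.34%), and long noncoding RNAs 2 higher and 6 lower of 206 (3.88%). Both shares were near the 3.44% over all genes. These classes were not tested against each other, and the median log2 values of the entries with a transcript number (0.012) and the transcribed pseudogenes (0.019) were close to 0. AT5G43800.1 went the other way, with 0, 0 and 0.209 CPM in hid1, against 4.66, 2.16 and 6.57 CPM in WT (-6.04 ± 0.83, adjusted p = 0.00417). MIR843, a microRNA precursor, had 0.607, 0.611 and 0.679 CPM in hid1 and no read in WT, at least 14.5-fold higher, and was the only called one of 48 small RNA host genes tested. Its neighbour AT3G48058 had 51 reads in hid1 and 2 in WT, a ratio of 27.0-fold (95% counting interval 7.10 to 229). The 5.8S ribosomal RNA entry AT3G41979 had 73.6, 73.5 and 52.6 CPM in hid1, against 8.94, 15.9 and 14.4 CPM in WT (2.35 ± 0.25, adjusted p = 1.65e-05), while the 3 other ribosomal RNA entries tested were at -0.27 to -0.54 and were not called. Poly(A) selection removes most ribosomal RNA, so these levels describe what remained.

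DNA methylation and silencing keep transposons quiet. Of 48 such genes tested, 4 were higher and 1 was lower (10.4% called; median 0.061). MET1, the methyltransferase that maintains CG methylation, had 73.7, 70.7 and 75.0 CPM in hid1, against 61.1, 56.0 and 58.7 CPM in WT (0.32 ± 0.068). VIM1, its cofactor, was at 0.44 ± 0.095, CMT3, the CHG methyltransferase, at 0.42 ± 0.10, and SGS3, a factor of small RNA production, at 0.33 ± 0.087. DML1, the DNA demethylase also known as ROS1, fell (-0.41 ± 0.10), with 37.3, 32.2 and 33.0 CPM in hid1, against 46.8, 45.2 and 44.3 CPM in WT. The libraries of all 5 genes were apart. This count was 3 without hid1 replicate 2, 1 without hid1 replicate 3, 3 without WT replicate 1, 1 without WT replicate 2 and 2 without WT replicate 3. Levels of these mRNAs give no measure of methylation.

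The DNA damage response list held NAC044, whose adjusted p was the second smallest of all genes. In plants this response runs through the kinases ATM and ATR to SOG1, a NAC factor that activates repair genes and cell-cycle brakes, among them the NAC factors NAC044 and NAC085. NAC044 (AT3G01600) had 10.7, 9.83 and 11.4 CPM in hid1, against 1.05, 1.304 and 0.481 CPM in WT. This was an 11.2-fold rise (3.49 ± 0.23, adjusted p = 6.16e-10) with no overlap. NAC085, its closest relative, had 30 reads over the hid1 libraries and 1 over the WT libraries, a ratio of 31.7-fold (95% counting interval 5.28 to 1295). GMI1 (AT5G24280), a protein of homologous recombination named for its induction by irradiation, had 30.3, 29.3 and 26.4 CPM in hid1, against 10.3, 10.6 and 7.48 CPM in WT (1.602 ± 0.12, adjusted p = 8.51e-09). All 3 were apart from WT in every hid1 library.

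Of 45 genes in this list, 11 were called and all 11 were higher (24.4%; median 0.19, with 34 members above 0). AT4G19130, a subunit of the single-strand binding protein RPA, had 4.98, 4.98 and 6.16 CPM in hid1, against 2.56, 2.698 and 2.71 CPM in WT (1.01 ± 0.15). Smaller rises came from RAD54, a recombination motor (0.64 ± 0.12), PARP2, a poly(ADP-ribose) polymerase (0.56 ± 0.15), BARD1 (0.54 ± 0.14) and BRCA1 (0.49 ± 0.12), partners in repair by recombination, RPA70D (0.50 ± 0.10) and the helicase RECQ4A (0.36 ± 0.098). The cyclin CYCB1;1, which this list shares with the mitotic one, also rose. The upstream regulators were not called: SOG1 was at -0.057, ATM at -0.0090, ATR at 0.21 and WEE1, a kinase that holds the cell cycle, at 0.19. The count of 11 was 7 without hid1 replicate 3, 7 without WT replicate 2 and 6 without WT replicate 3. NAC103, a NAC factor of the unfolded protein response, had 3.86, 4.02 and 3.19 CPM in hid1, against 1.72, 0.809 and 1.79 CPM in WT (1.35 ± 0.24), the only called one of 26 genes of that list.

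Genes of mitosis and cytokinesis leaned one way: all 44 tested had a log2 value above 0, with a median of 0.37, and 14 were called, all higher (31.8%). CYCB1;1, a cyclin of the entry into mitosis, had 14.0, 11.05 and 13.7 CPM in hid1, against 6.97, 7.02 and 6.70 CPM in WT (0.90 ± 0.15, adjusted p = 0.00072). HIK, the kinesin of the cell plate also known as NACK1, had 45.2, 40.6 and 43.3 CPM in hid1, against 29.9, 27.3 and 27.0 CPM in WT (0.62 ± 0.083, adjusted p = 5.12e-05). Neither gene's libraries overlapped. CYCA1;1 (0.73 ± 0.17), CYCB2;4 (0.57 ± 0.13) and CYC1BAT, a further B-type cyclin (0.51 ± 0.10), rose as well. So did CDC20.1 (0.63 ± 0.12) and CDC20.2 (0.62 ± 0.14), activators of the anaphase-promoting complex, and the Aurora kinases AUR1 (0.52 ± 0.12) and AUR2 (0.48 ± 0.13).

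The other called members act on the spindle, the chromosomes and the cell plate. They were TPX2, a spindle assembly factor (0.44 ± 0.12), SMC2, a condensin subunit (0.35 ± 0.085), SYP111, the cell plate syntaxin KNOLLE (0.48 ± 0.095), and the phragmoplast kinesins PAKRP1 (0.43 ± 0.11) and KINESIN-12B (0.57 ± 0.11). SYP111, AUR1, AUR2 and TPX2 overlap entries on the other strand. The count of 14 was 8 without hid1 replicate 1, 8 without hid1 replicate 3, 6 without WT replicate 2 and 9 without WT replicate 3.

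Of 37 replication genes, 2 were higher (5.41% called, close to the 3.44% over all genes), with a list median of 0.22. RNR1, the large subunit of ribonucleotide reductase, had 93.8, 89.4 and 99.7 CPM in hid1, against 78.0, 74.5 and 72.5 CPM in WT (0.33 ± 0.077). MCM5, part of the replicative helicase, had 32.2, 31.2 and 31.3 CPM in hid1, against 27.5, 23.7 and 24.8 CPM in WT (0.32 ± 0.089). None of 12 replicative histone genes (median 0.13), 11 cell cycle inhibitors (0.13) or 9 D-type cyclins (0.10) was called. SOL1, a TSO1-like protein, was the only called one of 21 DREAM and E2F genes (4.76%, also close to the share over all genes). It had 14.5, 13.2 and 16.5 CPM in hid1, against 12.7, 9.76 and 9.28 CPM in WT (0.47 ± 0.13). None of 11 COMPASS genes was called (median -0.022). Neither was any of 48 genes of TFIID, Mediator and transcription elongation (median -0.00085). Among 25 meiosis genes, DMC1, a recombinase, rose (0.52 ± 0.11) and HEI10, a crossover factor that overlaps other entries on both strands, fell (-1.74 ± 0.21). These 2 were 8% of that list, against 3.44% over all genes.

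Promoter elements were searched near these genes: the core of the mitosis-specific activator element that MYB3R factors bind (AACGG), and a SOG1-type palindrome (CTT, any 7 bases, AAG). Both strands of the 250 bases before each gene start in RefSeq TAIR10.1 were read, and a motif was counted whether or not it overlapped another. AACGG stood in 59.1% of mitosis promoters (26 of 44) and in 11 of the 14 called ones, against 21.6% of 20932 promoters of protein-coding loci tested, those with a transcript number in the table included and those without a full window left out. The SOG1-type palindrome stood in 17.78% of damage response promoters (8 of 45) and in 3 of the 11 called ones, against 9.02% overall. Of the promoters of all genes called higher, 24.6% held AACGG and 12.9% the palindrome, against 18.1% and 8.91% of those of genes called lower. A further element, the E2F site TTTCCCGC, stood in 2.64% of promoters of higher genes, in 0.557% of those of lower genes and in 0.650% overall. These shares describe letters in a window and were not tested.

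The promoters of 4 raised genes are printed because they show these elements in different combinations. AACGG or its reverse complement and the palindrome are in capitals. NAC044 (chr3:228825-229074 on the plus strand) and HIK (chr1:6324379-6324628 on the minus strand) hold both elements, CYCB1;1 (chr4:17624309-17624558 on the minus strand) holds 3 copies of AACGG, and NUC-L2 (chr3:6407947-6408196 on the minus strand) holds the palindrome. No match was found in the GMI1 window.
NAC044: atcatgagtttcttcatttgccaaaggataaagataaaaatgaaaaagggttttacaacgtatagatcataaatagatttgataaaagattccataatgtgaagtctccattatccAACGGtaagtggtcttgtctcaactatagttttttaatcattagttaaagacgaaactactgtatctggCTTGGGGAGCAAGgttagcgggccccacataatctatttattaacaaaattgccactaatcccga
HIK: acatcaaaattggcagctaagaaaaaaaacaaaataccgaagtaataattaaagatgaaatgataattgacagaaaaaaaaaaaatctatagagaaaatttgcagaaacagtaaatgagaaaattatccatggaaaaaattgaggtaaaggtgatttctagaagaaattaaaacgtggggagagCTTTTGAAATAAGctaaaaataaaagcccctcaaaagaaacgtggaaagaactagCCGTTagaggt
CYCB1;1: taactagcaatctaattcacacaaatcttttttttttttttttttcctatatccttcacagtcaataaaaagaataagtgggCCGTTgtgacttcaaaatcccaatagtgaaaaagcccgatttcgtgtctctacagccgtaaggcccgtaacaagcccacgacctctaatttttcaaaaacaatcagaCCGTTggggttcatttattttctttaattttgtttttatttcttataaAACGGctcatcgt
NUC-L2: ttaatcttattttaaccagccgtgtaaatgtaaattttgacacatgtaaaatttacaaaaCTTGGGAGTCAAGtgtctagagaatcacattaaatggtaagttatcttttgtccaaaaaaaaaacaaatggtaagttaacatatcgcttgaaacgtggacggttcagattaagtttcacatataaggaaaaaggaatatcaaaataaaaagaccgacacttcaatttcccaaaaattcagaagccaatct

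NUC-L2 (AT3G18610) encodes a nucleolin, a nucleolar protein of ribosomal gene chromatin. It had 8.97, 10.6 and 10.2 CPM in hid1, against 1.43, 1.93 and 1.71 CPM in WT, a 5.87-fold rise (2.55 ± 0.20, adjusted p = 1.49e-08) with the groups far apart. NAP57, the pseudouridine synthase of nucleolar RNA-protein particles, had 102, 101 and 119.6 CPM in hid1, against 94.5, 83.2 and 79.4 CPM in WT (0.33 ± 0.090). These were the 2 called of 28 nucleolus and ribosome biogenesis genes (7.14%, against 3.44% over all genes, median 0.085). None of 22 cytosolic ribosomal protein genes was called (median 0.036).

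**Figure D3:**
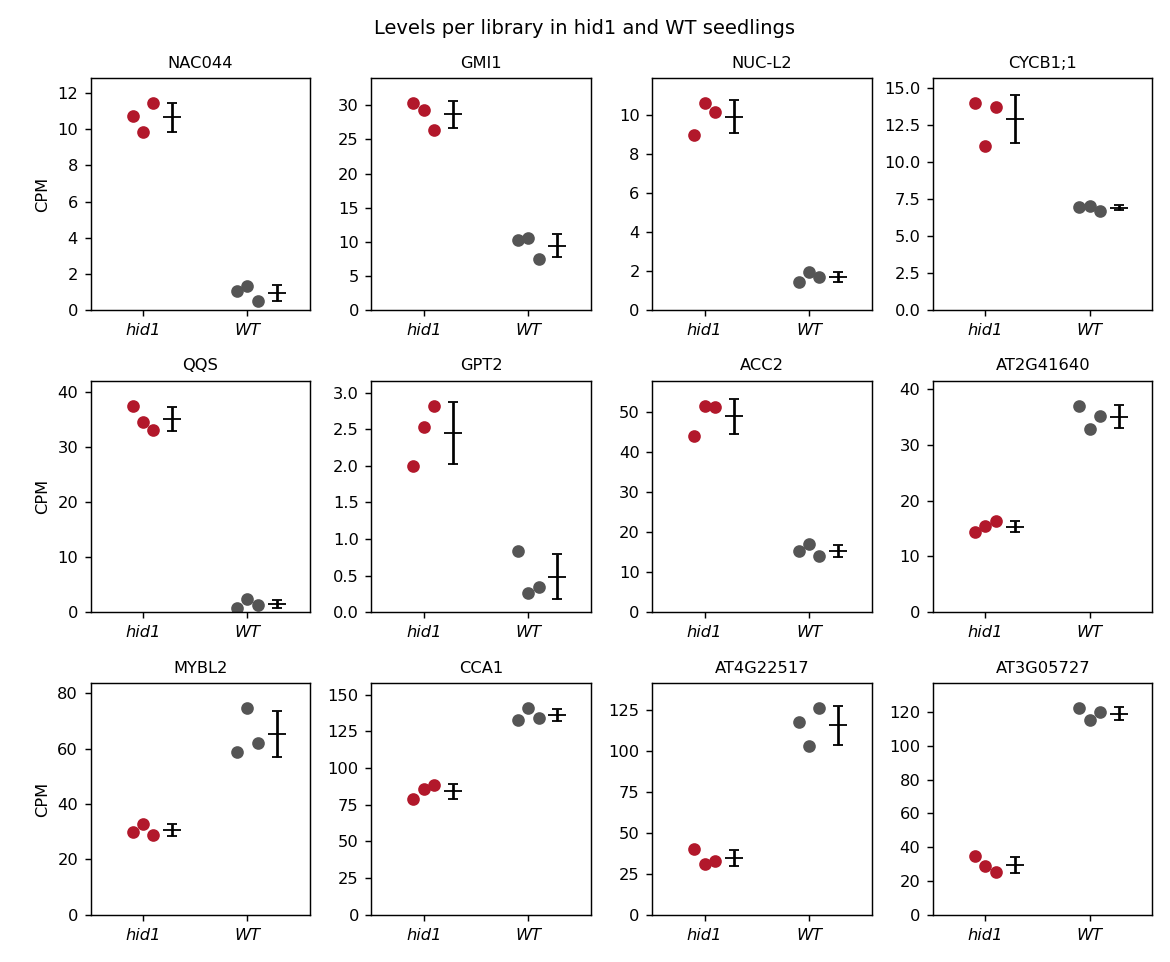
CPM of 12 genes (y axis, from 0) in each hid1 library (red, left) and each WT library (grey, right), with the mean and SD of 3 libraries as black marks. NAC044, GMI1, NUC-L2, CYCB1;1, QQS, GPT2 and ACC2 lie higher in hid1, and AT2G41640, MYBL2, CCA1, AT4G22517 and AT3G05727 lie lower, with no overlap in any panel.

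In the starch metabolism list, 14 of 43 genes were called and all 14 rose (32.6%; median 0.30, with 34 members above 0 and 9 below). QQS (AT3G30720), a gene found only in Arabidopsis thaliana whose loss raises leaf starch, had 37.5, 34.6 and 33.2 CPM in hid1, against 0.840, 2.38 and 1.36 CPM in WT, a 23.1-fold rise (4.53 ± 0.36, adjusted p = 1.22e-07). GPT2, which imports glucose 6-phosphate into plastids, had 1.99, 2.53 and 2.82 CPM in hid1, against 0.840, 0.270 and 0.350 CPM in WT (2.296 ± 0.42). The other 12 rose by 0.30 to 0.64. PHS1, the plastid glucan phosphorylase, had 340.3, 326 and 340.0 CPM in hid1, against 224, 249 and 245 CPM in WT (0.49 ± 0.070, adjusted p = 0.000105), and PHS2, its cytosolic counterpart, 356, 328 and 355 CPM in hid1, against 242, 241 and 285 CPM in WT (0.44 ± 0.075). Libraries were apart for each of these 4 genes.

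Most of the remaining called starch genes act in breakdown. They were SEX1, the glucan water dikinase that phosphorylates starch (0.37 ± 0.090), the glucan phosphatases SEX4 (0.42 ± 0.095) and LSF2 (0.64 ± 0.17), their relative LSF1 (0.44 ± 0.10), the debranching enzyme ISA3 (0.39 ± 0.094) and DPE2, which acts on maltose in the cytosol (0.30 ± 0.082). Synthesis was represented by plastid phosphoglucomutase PGM (0.33 ± 0.080), the ADP-glucose pyrophosphorylase subunit APL3 (0.60 ± 0.16), the branching enzyme SBE2.1 (0.35 ± 0.071) and starch synthase SS4 (0.44 ± 0.11). Many of these genes are known to follow the time of day. The count of 14 was 6 without hid1 replicate 1, 6 without hid1 replicate 3, 8 without WT replicate 1 and 4 without WT replicate 2.

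The circadian clock is a loop in which the morning MYB factors CCA1 and LHY repress evening genes such as TOC1, and RVE factors with LNK coactivators activate them. Of 26 clock genes, 7 were called and all 7 were lower in hid1 (26.9%; median -0.24, with 12 members above 0 and 14 below). CCA1 had 78.6, 85.9 and 88.3 CPM in hid1, against 133, 141 and 134 CPM in WT (-0.69 ± 0.17, adjusted p = 0.027), and LHY had 139, 156 and 164 CPM in hid1, against 225, 223 and 249 CPM in WT (-0.60 ± 0.16). RVE8 (-0.63 ± 0.11) and LCL1, also known as RVE4 (-0.43 ± 0.084), fell with them. So did the coactivator genes AT3G12320 (LNK3, -0.85 ± 0.13), AT3G54500 (LNK2, -0.81 ± 0.14) and AT5G06980 (LNK4, -0.96 ± 0.24), of which AT3G12320 and AT3G54500 overlap entries on the other strand. All 7 had libraries that did not overlap.

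The evening and later genes were not called. TOC1 was at 0.25 ± 0.12, PRR3 at 0.41 ± 0.15, ELF4 at 0.21 ± 0.14, PRR5 at 0.021 ± 0.11 and GI at -0.17 ± 0.15. The day-phased repressors PRR7 (-0.49 ± 0.19) and PRR9 (-0.40 ± 0.25) were not called either, nor was AT5G64170, LNK1 (-0.54 ± 0.17, adjusted p = 0.0833). The count of 7 was 4 without hid1 replicate 1, 2 or 3 and 4 without WT replicate 1 or 2, and it was 11 in a fit of the 6 libraries alone. Seedlings grew in continuous light, and the labels give no hour of harvest.

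**Figure D4:**
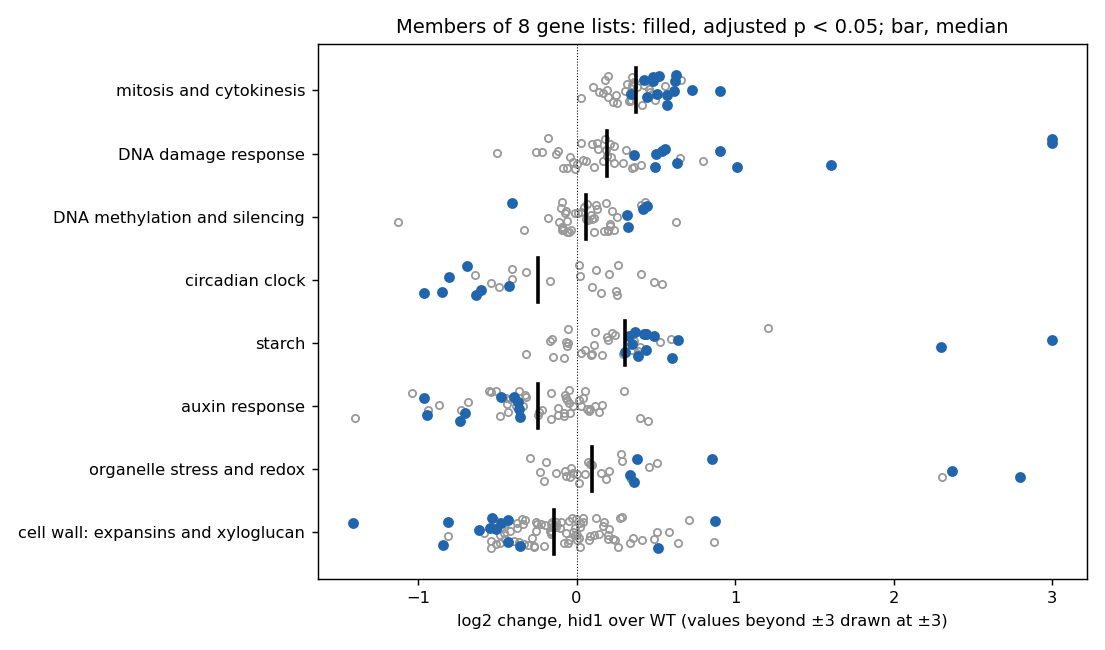
Log2 change of hid1 over WT (x axis) for each tested member of the 8 lists with 5 or more called members (y axis), with called members filled and black bars at the list medians. All 44 mitosis and 34 of 43 starch members sit right of 0 (medians 0.37 and 0.30), and 14 of 26 clock and 44 of 57 auxin members left of it (both medians -0.24).

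Auxin response genes leaned the other way. Auxin is sensed by TIR1 receptors that remove Aux/IAA repressors, and Aux/IAA and GH3 genes are themselves early auxin targets. Of 57 genes, 9 were called and all were lower in hid1 (15.8%; median -0.24). IAA19 had 3.29, 3.23 and 2.403 CPM in hid1, against 5.46, 5.53 and 6.26 CPM in WT (-0.94 ± 0.20). GH3.3, which conjugates auxin to amino acids, had 5.46, 6.55 and 7.57 CPM in hid1, against 10.5, 10.9 and 10.4 CPM in WT (-0.70 ± 0.17). The libraries of neither overlapped. The repressor genes AXR3 (-0.48 ± 0.11), IAA7 (-0.37 ± 0.098) and IAA16 (-0.36 ± 0.10) fell, as did DFL1, a GH3 enzyme (-0.74 ± 0.18), the auxin synthesis gene YUC3 (-0.96 ± 0.25) and the efflux carriers PIN3 (-0.40 ± 0.090) and PIN4 (-0.35 ± 0.092).

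GH3 enzymes are also grouped as an annotated product family, which went both ways (4 of 15 called, 26.7%). Of 205 such families, its share called was the highest among those with 4 or more called genes. Its 1 higher gene was AT1G48660 (log2 value 1.65), and DFL2 (-0.45) was lower beside GH3.3 and DFL1. Neither AT1G48660 nor DFL2 was among the 9, and both were named after their values were seen. The count of 9 auxin genes was 2 without hid1 replicate 1, 1 without hid1 replicate 3, 4 without WT replicate 1, 4 without WT replicate 2 and 3 without WT replicate 3. SAUR genes, small auxin-induced growth genes, had a median of -0.23 over 65 tested, and 1 was called, or 1.54% (AT1G29430, -0.54 ± 0.15). Among 34 ethylene genes 3 fell (8.82%): the ACC synthases ACS4 (-1.63 ± 0.36) and ACS11 (-1.002 ± 0.27), and RAV2 (-0.75 ± 0.14), also known as TEM2 and EDF2. Of 41 cytokinin genes, LOG8 (-0.37 ± 0.085), which activates cytokinin, and HK3 (-0.25 ± 0.064), a cytokinin receptor, fell. These 2 were 4.88% of that list, close to the 3.44% over all genes.

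Called cell wall genes were mostly lower. Of 98 tested genes of expansins, xyloglucan enzymes, cellulose synthases and arabinogalactan proteins, 2 were higher and 11 lower (13.3%; median -0.14). ATCSLA15, a mannan synthase relative, had 2.34, 3.14 and 2.56 CPM in hid1, against 7.43, 6.03 and 7.97 CPM in WT (-1.41 ± 0.23). The secondary wall cellulose synthases IRX1 (-0.47 ± 0.12), IRX3 (-0.43 ± 0.11) and CESA4 (-0.36 ± 0.093), which form a joint complex, fell. All 3 overlap entries on the other strand. XTH4, XTH6 and XTH8, xyloglucan endotransglucosylases, were at -0.43, -0.54 and -0.54, and the arabinogalactan protein genes AGP4, AGP7 and AGP26 at -0.61, -0.84 and -0.51. XTH31 and XTH19 were the 2 that rose, XTH31 with 192, 177 and 217 CPM in hid1, against 117, 79.0 and 122.9 CPM in WT (0.88 ± 0.15). The count of 13 was 4 without hid1 replicate 1, 3 without hid1 replicate 3, 8 without WT replicate 1, 8 without WT replicate 2 and 3 without WT replicate 3.

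The aquaporins PIP1;5 (157, 179.8 and 145 CPM in hid1, against 242, 239 and 243 CPM in WT; -0.59 ± 0.13) and PIP1B (-0.33 ± 0.090) fell, out of 28 tested. These 2 were 7.14% of the aquaporins tested, against 3.44% over all genes. Of 26 root hair genes, 25 had a log2 value below 0 (median -0.28), but only RSL2, a root hair growth factor, was called (-0.97 ± 0.27). Their summed level was 337, 391 and 362 CPM in hid1 and 426, 445 and 392 CPM in WT, without overlap but with hid1 replicate 2 and WT replicate 3 side by side. The endodermis list gave 409 to 432 CPM in hid1 and 401 to 434 CPM in WT, and the root meristem list 186 to 191 CPM and 194 to 202 CPM. The part of the root share of the seedlings in these results was not tested.

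Other large falls included genes with little annotation. AT3G05727, which encodes a small protein related to pollen coat peptides, had 34.8, 28.7 and 25.2 CPM in hid1, against 122, 115 and 119.8 CPM in WT, a 4.02-fold lower level (-2.01 ± 0.16, adjusted p = 7.05e-08). AT2G41640, a family 61 glycosyltransferase that overlaps AT2G41650 on the same strand, had 14.303, 15.4 and 16.3 CPM in hid1, against 36.9, 32.9 and 35.1 CPM in WT (-1.19 ± 0.088, adjusted p = 5.93e-09). Both were tight within each genotype and far apart between them. RL1, a RAD-like MYB gene, had 0, 0.0874 and 0.209 CPM in hid1, against 2.31, 0.720 and 1.84 CPM in WT (-4.04 ± 0.67), and AGL42, a MADS-box gene of flowering and root, 0.217, 0.218 and 0.157 CPM in hid1, against 1.34, 2.07 and 1.27 CPM in WT (-2.93 ± 0.47). RLP18 and AT2G15042, leucine-rich repeat genes at adjoining loci, had log2 changes of -2.53 ± 0.36 and -2.23 ± 0.27. The remaining large falls were AT1G77520, an O-methyltransferase (-2.51), AT3G02670, a glycine-rich protein (-2.39), AT2G30670, a Rossmann-fold protein (-2.23), AT1G14250, a nucleoside phosphatase (-2.17), and AT3G48790, a pyridoxal phosphate enzyme (-2.05).

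A cluster of lipid-transfer-like genes on chromosome 4 was lower as a block. The annotated product family of bifunctional inhibitor, lipid-transfer and 2S albumin proteins had 62 members tested, of which 1 was higher and 12 lower (21.0%; median -0.077). It was picked on these values, so it is described without a test. Of 205 product families, its share called was the second highest among those with 4 or more called genes. AT4G22485 had 119, 108 and 111 CPM in hid1, against 343, 255 and 337 CPM in WT (-1.47 ± 0.19), and AT4G22490 43.5, 42.7 and 42.1 CPM in hid1, against 107, 110.2 and 126 CPM in WT (-1.42 ± 0.12). AT4G22505, AT4G22513, AT4G22517 and AT4G22520 were at -1.42, -1.33, -1.73 and -1.54, with no overlap of libraries. AT4G22510, an entry on the other strand, overlaps AT4G22513 and AT4G22517 and was at -1.58. The cluster holds similar copies, so how reads were divided among them is uncertain. Outside it, DIR1, a lipid-transfer protein of systemic resistance (-0.81 ± 0.14), AT2G45180 (-0.62 ± 0.11) and AT2G10940 (-0.50 ± 0.13) fell too.

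Other neighbouring genes that changed together by 2-fold or more included AT2G18190 and AT2G18193, which encode P-loop triphosphatases. AT2G18193 had 10.7, 11.9 and 13.8 CPM in hid1, against 5.29, 5.40 and 3.15 CPM in WT (1.39 ± 0.15), and AT2G18190 had 50 reads in hid1 and 1 in WT, a ratio of 52.9-fold (95% counting interval 9.07 to 2131). AT3G62455.1 and AT3G62460 were at 1.598 ± 0.13 and 1.35 ± 0.13. HCHIB, a basic chitinase, and AT3G12502, an RNA that overlaps it on the other strand, were at 1.003 ± 0.23 and 1.13 ± 0.22. ABCG4, a transporter, and GDU2, which affects amino acid export, were lower at -1.15 ± 0.26 and -1.30 ± 0.32.

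In metabolism, ACC2 (AT1G36180), a multifunctional acetyl-CoA carboxylase of fatty acid synthesis in plastids, had 43.8, 51.4 and 51.0 CPM in hid1, against 15.2, 16.95 and 14.0 CPM in WT, a 3.17-fold rise (1.66 ± 0.12, adjusted p = 5.93e-09). CER1, of wax alkane synthesis, had 69.6, 57.2 and 68.6 CPM in hid1, against 37.5, 35.3 and 48.9 CPM in WT (0.68 ± 0.13). PAD3, which makes the last step to the phytoalexin camalexin, had 9.15, 8.78 and 5.22 CPM in hid1, against 2.94, 2.97 and 2.14 CPM in WT (1.53 ± 0.25), and was the only called one of 15 camalexin and indole genes. MYBL2, a repressor of anthocyanin synthesis, had 30.1, 32.8 and 28.7 CPM in hid1, against 58.7, 74.6 and 62.2 CPM in WT (-1.09 ± 0.18), and PAP1 (AT1G56650), an activator of it, had 1.69, 0.742 and 2.14 CPM in hid1, against 0.588, 0.0450 and 0.438 CPM in WT (2.05 ± 0.58, adjusted p = 0.0496). The libraries of ACC2, PAD3 and MYBL2 did not overlap. No other of the 27 flavonoid and anthocyanin genes was called (median -0.0013). The called share of that list was 7.41%, against 3.44% over all genes.

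Genes that respond to stalled mitochondrial respiration and oxidative stress gave 6 called of 32, all higher (18.8%; median 0.097, with 22 members above 0). AOX1A, the main stress-induced alternative oxidase, was at 0.087 ± 0.082, UGT74E2 at 0.15 ± 0.20 and NDA1 at -0.19 ± 0.23, and none of these 3 was called. SRO3 had 1.34, 1.79 and 1.83 CPM in hid1, against 0.126, 0.225 and 0.350 CPM in WT (2.79 ± 0.40) and AOX1C, another alternative oxidase, 0.954, 0.786 and 1.04 CPM in hid1, against 0.126, 0.180 and 0.219 CPM in WT (2.37 ± 0.43). GSTU25, a glutathione transferase (0.85 ± 0.21), NDB2, an alternative NADH dehydrogenase (0.38 ± 0.097), FSD3, a plastid superoxide dismutase (0.36 ± 0.096), and SRO5 (0.33 ± 0.094) rose less. GSTU25 overlapped between the genotypes, with 5.16, 8.43 and 8.41 CPM in hid1, against 5.42, 3.69 and 3.02 CPM in WT. The count of 6 was 3 without hid1 replicate 2, 2 without hid1 replicate 3, 2 without WT replicate 2 and 2 without WT replicate 3.

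Nutrient and stress lists gave scattered calls. Of the nitrate and ammonium genes 8.89% were called, against 3.44% over all genes. Of 45 nitrate and ammonium genes, 2 rose and 2 fell: the nitrate transporter NRT2:1 had 4.16, 0.524 and 3.29 CPM in hid1, against 0.504, 0.225 and 0.306 CPM in WT (2.91 ± 0.63), nitrite reductase NIR1 449, 466 and 533 CPM in hid1, against 372, 365 and 356 CPM in WT (0.40 ± 0.091), and the transporters AMT2 (-0.64 ± 0.12) and NRT2.3 (-1.16 ± 0.30) fell. NRT2:1 was apart but uneven, with hid1 replicate 2 close to WT. FRO4, a ferric reductase, was the only called one of 37 iron genes (-1.11 ± 0.18). None of 32 phosphate starvation genes (median -0.30), 28 sulphur genes (-0.16), 26 salicylic acid defence genes (-0.076) or 19 hypoxia genes (-0.23) was called. COR15B, a cold-regulated protein gene, rose to 54.8, 42.5 and 61.6 CPM in hid1, against 18.8, 13.9 and 28.6 CPM in WT (1.37 ± 0.30). It was the only called one of 16 cold response genes tested (6.25%). TPS11 (-0.53 ± 0.12) and TPS9 (-0.39 ± 0.11), trehalose phosphate synthase-like proteins, were the 2 called of 35 sugar starvation genes (5.71%, against 3.44% over all genes), both lower.

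ABI5 (1.104 ± 0.24) and RD20 (0.78 ± 0.19), genes of abscisic acid response, rose, out of 35 (5.71% called, against 3.44% over all genes). Beside them stands a difference in seed transcripts between libraries: the 29 genes of the seed maturation list summed to 8.58, 129.98 and 24.4 CPM in hid1, against 7.98, 10.6 and 10.6 CPM in WT. CRA1, a seed storage protein, had 0.650, 35.7 and 11.1 CPM in hid1, against 0.0840, 0.405 and 0.525 CPM in WT, so that hid1 replicates 2 and 3 stood above the rest. Its log2 value was 5.54 ± 2.01, and no seed gene was called among 21 tested, in spite of a list median of 3.26. ABI5 had 2.95, 3.28 and 2.19 CPM in hid1, against 1.26, 1.71 and 0.963 CPM in WT, with hid1 replicate 1 as high as the others, and the part of seed transcripts in its change was not tested. Plastid-encoded transcripts, which lack the poly(A) tails that the library method selects, summed to 254 to 295 CPM in hid1 and 248 to 404 CPM in WT.

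Annotated processes, read over 171 terms with 15 or more tested genes, were ranked by their share of called genes and are given without a test. Among terms with 4 or more called genes, DNA metabolic process had the highest share, with 4 higher and none lower of 15 (26.7%). Unidimensional cell growth followed with 1 higher and 6 lower of 28 (25%), lipid transport with 1 higher and 13 lower of 74 (18.9%) and microtubule-based movement with 7 higher and none lower of 42 (16.7%). Defense response to fungus went both ways, with 5 higher and 3 lower of 59 (13.6%), and response to other organism had 3 higher and 1 lower of 30 (13.3%). DNA repair had 6 higher and 1 lower of 58 (12.1%), response to cyclopentenone 3 higher and 2 lower of 48 (10.4%) and response to auxin 6 lower of 59 (10.2%). Response to salt stress, a large term, had 11 higher and 7 lower of 231 (7.79%). Among 211 symbol families, those with 3 or more called genes were led by the symbol TPS, with 1 higher and 2 lower of 11 (27.3%). Fasciclin-like arabinogalactan proteins (FLA) had 3 lower of 14 (21.4%), XTH genes 2 higher and 3 lower of 26 (19.2%), methylesterases (MES) 2 higher and 1 lower of 16 (18.8%), and Aux/IAA genes 3 lower of 20 (15%).

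Loss of HID1 was then examined in bte1 mutants, where 6 other libraries carry the contrast of bte1 hid1 against bte1. There, 49 of 21897 genes were called (0.224%), 32 higher and 17 lower. DESeq2 called 90 (63 higher, 27 lower) and a fit of the 6 libraries alone 74. The 17 lower genes were 9 without bte1 replicate 2, 10 without bte1 replicate 1, 11 without bte1 hid1 replicate 1 or 3 and 28 without bte1 hid1 replicate 2. The shares that follow use the 49. Of these, 30 were also called in hid1 against WT, which is 61.2% of the calls in the bte1 background and 3.98% of those in WT. All 30 had the same direction in both. Of the 378 genes higher in hid1 against WT, 68.8% had a positive log2 value in bte1 hid1 against bte1, with a median of 0.10. Of the 376 lower genes 60.4% had a negative value, with a median of -0.057. Over all genes, 50.4% were positive and the median was 0.0015.

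Besides HID1 and the 3 entries without reads, several genes described above were called in both backgrounds. AT2G35760 changed by 1.49 in bte1 hid1 against bte1 and 1.87 in hid1 against WT, and HIL1 by 1.15 and 2.25. QQS had 12.003, 15.2 and 23.63 CPM in bte1 hid1, against 0.403, 0.232 and 0.432 CPM in bte1, a log2 change of 5.54. NAC044 had 2.51, 2.3996 and 3.27 CPM in bte1 hid1, against 0.805, 0.558 and 0.820 CPM in bte1 (1.89, adjusted p = 0.00018). SADHU3-2 (5.83), MIR843 and ACC2 (0.79) were also called. AT3G01345, an uncharacterized gene, changed by 7.08 in bte1 hid1 against bte1 and 2.96 in hid1 against WT (difference 4.12, adjusted p = 0.0267).

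Few members of the gene groups above were called in the bte1 background. None of the mitosis, clock, auxin or cell wall members was called there, 1 damage response gene was (NAC044), and 1 starch gene was (QQS). HIK was at 0.024, CYCB1;1 at 0.27, GMI1 at 0.51, CCA1 at -0.37 and IAA19 at 0.030. A test of the difference between the effects in both backgrounds called 75 genes (0.343%), 64 of which were also called in hid1 against WT, and for 62 of those the effect was smaller in bte1. The difference uses the same hid1 and WT libraries as that call. Values were nearer 0 in bte1 for most genes called in hid1 against WT: 362 of the 378 higher and 371 of the 376 lower ones. These genes were picked on their values in hid1 against WT, and values nearer 0 in another comparison can follow from that choice alone. That count of 75 varied with the fit and the libraries: DESeq2 called 247 and a fit of the 12 libraries alone 356. It was 27 without WT replicate 3, 33 without bte1 replicate 1, 35 without bte1 hid1 replicate 1, 35 without hid1 replicate 3, 37 without bte1 replicate 3 and 47 without hid1 replicate 2. For most genes the difference was not called, so a missing call in bte1 does not show a different response.

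Among genes with a called difference, NUC-L2 had 17.2, 16.7 and 14.8 CPM in bte1 hid1 and 13.3, 10.3 and 10.3 CPM in bte1, a log2 change of 0.52, against 2.55 for hid1 over WT (difference -2.03, adjusted p = 0.000215). AT2G41640 was at 0.17 in the bte1 background (difference 1.36, adjusted p = 1.56e-06), and GMI1 differed by -1.09 (adjusted p = 0.00407). Each of these changed in hid1 against WT and changed less in the bte1 background. AT1G51610, a cation efflux protein gene, had 26.7, 25.3 and 24.7 CPM in bte1 hid1 and 9.26, 8.41 and 8.76 CPM in bte1 (1.53), but was not called in hid1 against WT (0.16 ± 0.086). ARF10, an auxin response factor, had 0.84 in the bte1 background and -0.20 in hid1 against WT (difference 1.04, adjusted p = 0.000156).

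**Figure D5:**
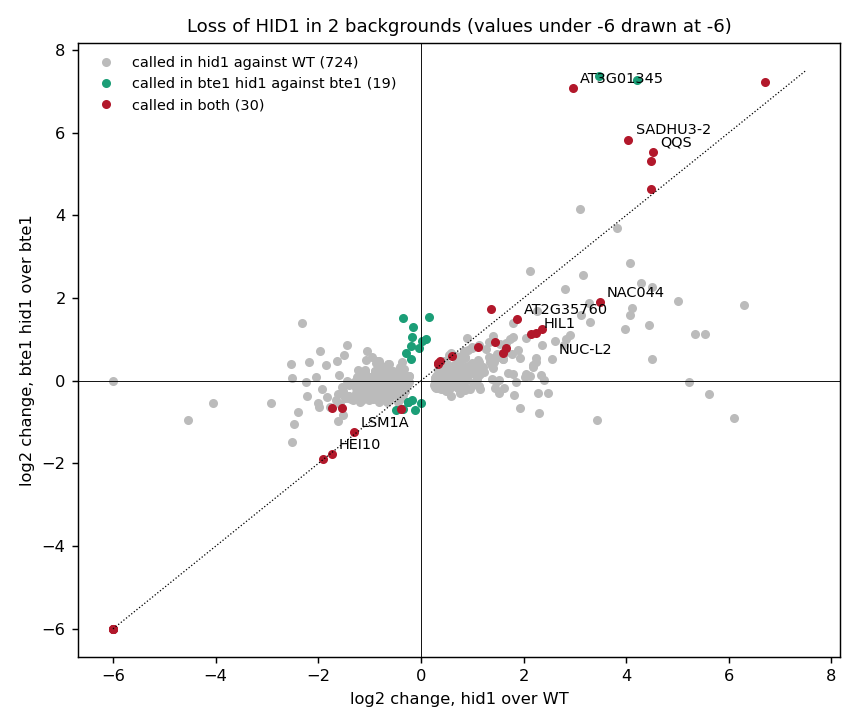
Log2 change of bte1 hid1 over bte1 (y axis) against that of hid1 over WT (x axis) for genes called in either comparison, with the dotted line at equal change. The 30 genes called in both (red) lie on the same side of 0 on both axes; the 724 called only in hid1 against WT are grey and the 19 called only in bte1 hid1 against bte1 green.

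Last, all genotypes were read for genes that follow the hid1 mutation. The mutation is carried by 9 libraries (hid1, bte1 hid1 and hid1 phil1), and 15 lack it. For 17 of 21897 genes (0.0776%) the 9 libraries lay wholly above or below the 15, 11 of them higher and 6 lower, and 12 of the 17 were called in hid1 against WT. Besides HID1, AT2G35750 and AT2G35760, they included 4 neighbours on chromosome 1, AT1G19110, AT1G19115, LSM1A and AT1G19130. LSM1A, a subunit of the complex that promotes mRNA decapping, ran at 6.13 to 8.51 CPM in the 9 libraries and 10.02 to 17.56 CPM in the 15. AT1G19115 ran at 1.16 to 3.78 and 0 to 0.266 CPM, and AT1G19130, which overlaps LSM1A on the other strand, at 39.1 to 53.4 and 24.3 to 32.8 CPM.

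The overlapping genes MRD1 and HEI10, also on chromosome 1, were lower with the mutation: HEI10 ran at 1.32 to 12.8 CPM against 28.4 to 44.0 CPM, and MRD1 at 0.0460 to 10.8 CPM against 25.6 to 34.6 CPM. EMB1444, a basic helix-loop-helix factor gene, was higher at 72.6 to 82.7 CPM against 33.7 to 63.1 CPM, as was AT1G06149 at 68.0 to 79.6 CPM against 30.2 to 60.5 CPM. EMB1444 and AT1G06149 had similar means, 75.4 and 71.4 CPM in hid1 and 60.0 and 56.8 CPM in WT. Whether both count the same reads was not tested. AT3G41979, the 5.8S ribosomal RNA entry, ran at 23.2 to 73.6 CPM against 2.79 to 21.7 CPM. The other members were UNE15 (1.64 to 2.46 CPM against 0.274 to 1.39 CPM), EXGT-A3, AT4G39050, AT5G35753 and AT5G43020, and the last 4 and AT1G19110 were not called in hid1 against WT. HID1 and AT2G35750 had the same range in the 9 libraries, 0 to 0.421 CPM, and whether they count the same reads was not tested. These 24 libraries include the 6 of hid1 and WT, so this is a description of levels and not a further test.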

How the data were processed

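Poly(A) RNA of total seedlings was sequenced in 24 libraries of 8 genotypes, per the labels. The authors deposited raw counts per gene. Per the submitters' processing notes, fastp, HISAT2 2.1.0, SAMtools 1.6 and TAIR10 were used; the counting tool and its strand setting are not given in the sources used here, so reads of overlapping genes may be shared. The FPKM table was not used. From the deposited counts, 21897 of 33612 entries passed filterByExpr (11715 did not) and entered 1 edgeR 4.0.16 quasi-likelihood fit (R 4.3.3, limma 3.58.1) of all 24 libraries, with TMM scaling, 16 residual degrees of freedom and Benjamini-Hochberg adjustment. Every adjusted p is from it, and values written as a log2 change ± SE are its contrasts. The SE was not fitted directly but computed as the size of the log2 change divided by the square root of its F statistic. CPM uses TMM-scaled totals. Totals ran from 14309396 to 23912716 counts. The test was checked on simulated data. The labels call the replicates biological but name no separate sowings, so p-values measure the spread between these libraries.

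The comparisons were hid1 against WT, bte1 hid1 against bte1, which share no library, and the difference between them, which uses both. Members and lists were chosen with earlier results of these data known. Genes named are HID1 and HIL1, the 15 largest changes each way at 1 CPM or more without overlap, the 10 smallest p, up to 4 called genes per list (2 uncalled where none), neighbouring genes called at 2-fold or more, 5 non-coding entries each way and the 5 smallest p of the difference. Further list members, genes at the HID1 locus, ribosomal RNA, PIF3, HY5, members of the lipid-transfer product family, genes called in bte1 hid1 and genes that follow the mutation were named after their values were seen. Of all entries, 32843 matched RefSeq TAIR10.1. Same-numbered bte1 hid1 and bte1 libraries deviated together weakly (r of 0.171, 0.142 and 0.269 across genes), against -0.214 to 0.0602 for other pairs. The labels name no pairing, so whether the numbers pair these libraries is not known. The main fit has no replicate term. Alternatives were DESeq2 1.42.0, RLE factors, no filter, fewer libraries, a replicate block and leaving out each replicate.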

Additional observations from a re-analysis of the deposited data

Results flagged for a closer look

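The effect of losing HID1 differed between the bte1 and WT backgrounds for 75 genes by edgeR's quasi-likelihood test of the difference itself, while DESeq2 called 247 and a fit of the 12 libraries alone 356. Each difference below is the log2 change of bte1 hid1 over bte1 minus that of hid1 over WT, and has an adjusted p under 0.05 over all genes. The smallest p were those of AT2G41640 (1.36), AT1G51610 (1.38), AT5G14840 (0.94), ARF10 (1.04) and NUC-L2 (-2.03). Of these, AT1G51610, AT5G14840 and ARF10 were called in the bte1 background and not in hid1 against WT. Among named genes that were higher in hid1 than in WT, the effect was smaller in bte1 or below 0 there for GMI1 (-1.09), AT2G18193 (-1.34), AT3G62455.1 (-0.92), DMC1 (-0.76), PAD3 (-1.82), HIK (-0.59), ACC2 (-0.87), AT3G62460 (-0.88), GPT2 (-3.08), HIL1 (-1.09) and AT4G19130 (-1.06). Among those lower in hid1 than in WT, it was nearer 0 or above 0 in bte1 for AT3G05727 (1.46), AT4G22490 (1.05), RLP18 (2.94), AT2G15042 (2.19), AT4G22517 (1.08), AT4G22510 (1.004), MYBL2 (1.34), AT4G22520 (0.89), AT1G14250 (2.63) and DML1 (0.68).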

How the results depend on the processing

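In hid1 against WT, 763 genes were called with RLE factors, 713 without a filter, 996 with DESeq2 and 1123 from the 6 libraries alone (592 of them lower). No called gene changed sign under any of these, and 747 of the 754 were called by DESeq2. With one replicate left out, the calls ran at 349 to 623 (174 to 331 higher, 165 to 292 lower). The numbers of hid1 and WT libraries are not known to pair them (r of 0.106, 0.209 and -0.0629 for equal numbers), and a replicate block gave 769 calls, 712 shared. In bte1 hid1 against bte1, DESeq2 called 90 genes (63 higher, 27 lower), the 6 libraries alone 74 (31 lower) and the replicate block 54, and leave-one-out fits called 35 to 67 (23 to 39 higher, 9 to 28 lower). For the difference between backgrounds, DESeq2 called 247 genes (141 higher, 106 lower) and the 12 libraries alone 356 (178 each way), and leave-one-out fits 27 to 79 (19 to 54 higher, 8 to 28 lower). Left-out replicates moved list counts too: DNA damage response from 6 to 12 against 11, DNA methylation and silencing from 1 to 4 against 5, auxin response from 1 to 6 against 9, cell wall from 3 to 12 against 13, circadian clock from 4 to 5 against 7, mitosis and cytokinesis from 6 to 15 against 14, organelle stress and redox from 2 to 4 against 6 and starch from 4 to 13 against 14. The clock count was 11 from the 6 libraries alone. The cause of these shifts was not tested, though fits with a replicate left out have fewer samples. Of 173 named genes recomputed, 76 of the 136 called stayed called in every planned fit. The log2 change of AT5G14840, not called (0.023), ran from -0.0065 without hid1 replicate 2 to 0.048 without WT replicate 2. Counts of few reads limit genes under 1 CPM, of which 24 were called.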

Other observations

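Stress and defence regulators held a few calls in each direction in hid1 against WT. AT5G48570, a peptidyl-prolyl isomerase of the heat shock list, had 9.75, 10.96 and 12.5 CPM in hid1, against 7.85, 7.51 and 9.02 CPM in WT (0.44 ± 0.11), and HSP70 was at 0.32 ± 0.084. HSFA7A, a heat shock transcription factor, had 7.89, 10.3 and 8.04 CPM in hid1, against 12.6, 16.5 and 10.8 CPM in WT (-0.60 ± 0.16). These were the 3 called of 34 heat shock genes (8.82%). Of 60 WRKY factors, WRKY57 rose (0.44 ± 0.11) and WRKY22 (-0.75 ± 0.19) and WRKY28 (-0.93 ± 0.24) fell. Of 39 jasmonate and wounding genes, the repressor gene JAZ5 had 2.21, 0.786 and 0.992 CPM in hid1, against 0.546, 0.540 and 0.613 CPM in WT (1.23 ± 0.33), and JAZ6, another repressor gene, fell (-0.37 ± 0.10). TGG2, a myrosinase that cleaves glucosinolates, was the only called one of 41 genes of the glucosinolate list (-0.54 ± 0.14). Shares called were 5% for WRKY factors, 5.13% for jasmonate and 2.44% for glucosinolate genes, near the 3.44% over all genes. For each gene named here the 3 hid1 libraries lay wholly on one side of the 3 WT libraries. The same held for 98.9% of all called genes and 25.2% of all genes tested.

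Developmental regulators changed in small numbers too. Among 42 flowering genes, TOE2, a repressor of flowering, had 67.0, 65.9 and 64.7 CPM in hid1, against 50.4, 44.0 and 54.0 CPM in WT (0.41 ± 0.075). AGL24, an activator of flowering, fell (-1.05 ± 0.27), as did SPL3, which overlaps an entry on the other strand (-0.82 ± 0.22), and AGL42. These 4 were 9.52% of that list, against 3.44% over all genes. GA3, the kaurene oxidase of gibberellin synthesis, was the only called one of 28 gibberellin genes (-0.31 ± 0.079), or 3.57%, near the 3.44% over all genes. BASL, a polarity factor of the stomatal lineage, rose (0.72 ± 0.18), as did KCS2, a fatty acid elongase of suberin synthesis (0.51 ± 0.12) that overlaps entries on the other strand. Of 38 stomata and epidermis genes 5.26% were called (median -0.020), and of 27 endodermis and suberin genes 3.70% (median 0.059), against 3.44% over all genes. None of 45 shoot meristem and leaf polarity genes was called (median 0.084). In the bte1 background other genes were called that were not called in hid1 against WT, among them UGT85A2, a glycosyltransferase (1.2999 in bte1 hid1 against bte1, -0.15 in hid1 against WT), CPK9, a calcium-dependent kinase (0.68 and -0.29), and MAF4, a relative of the flowering repressor FLC (1.05 and -0.18). These 3 were named after their values were seen.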
